A study of Macaca fascicularis with 80 samples.

Results

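Whole blood of 8 cynomolgus macaques was compared between day 8, which is 24 h after the third dose of IL-15/IL-15Ra, and day 7, the day of that dose. Libraries were taken by their labelled day and paired by animal number, which gave 16 of the 80 libraries of the study, 8 on each day. All animals, 4 female (39090, 39095, 39097 and 39098) and 4 male (39100, 39102, 39103 and 39104), had by day 8 received doses of 5 (day 0), 10 (day 3) and 15 µg/kg (day 7). The labels give the day 7 libraries the dose of 10 µg/kg and the day 8 libraries that of 15 µg/kg. They do not state the hour of the day 7 bleed. No undosed animals were analysed, so a change over these days that would occur without the third dose cannot be told apart from a change with it. The labels give no ages.

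Interleukin 15 is a cytokine that keeps natural killer cells and memory CD8 T cells alive and drives them to divide. It is presented to these cells by its receptor alpha chain, IL-15Ra, and signals through the beta and common gamma chains that it shares with interleukin 2, with JAK1, JAK3 and STAT5 downstream. Cytokine given to an animal can also change which white cells circulate and which have left the blood for the tissues. Whole blood RNA is a mixture from neutrophils, lymphocytes, monocytes, platelets and young red cells, and fewer cells of a type and less RNA per cell cannot be told apart in it. The tissue label was not checked against marker genes, because the files do not pair their identifiers with gene names and 0 identifiers matched the reference table. For the same reason no pathway or cell type list was read, and changes are described by size, level and animal, with 4 identifiers as examples.

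Day 7 libraries held 18.1 to 51.45 M counts (M, mega) with a median of 23.1 M, and day 8 libraries held 23.25 to 58.57 M with a median of 25.9 M. Over 40 M were 1 library of day 7 (39097) and 3 of day 8 (39102, 39103 and 39104). Animals 39102 and 39104 stood apart in their change between the days, as described below, so the main results are also given without them. Animal 39103, also deep on day 8, changed little. The pairing was weakest for 39104, whose deviations from the mean of each day had r = 0.0352 between the days, against a median of 0.484 over the 8 animals.

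On day 8, 964 genes were higher (6.0% of the 16054 tested) and 1247 were lower (7.77%) than on day 7 in the same animals. The genes that rose did so by a median of 0.73 on the log2 scale, with quartiles of 0.54 and 1.03. Those that fell had a median log2 fold change of -0.75, with quartiles of -1.26 and -0.51. Large changes were mostly decreases: 258 genes rose (1.61% of those tested) and 439 fell (2.73%) by more than 2-fold, together 4.34%. By more than 4-fold, 13 rose (0.0810%) and 120 fell (0.747%), together 0.828%. The test was edgeR's quasi-likelihood test with animal as a block and a Benjamini-Hochberg adjusted p under 0.05, and such genes are called changed here. At an unadjusted p under 0.05 there were 5894 genes (36.7%), while the smallest adjusted p was 0.0106. The 2211 calls (13.8%) thus came from a broad set of genes with moderate evidence, and 4678 passed at an adjusted p under 0.1. Without the 2 animals 39102 and 39104, 1412 genes were higher (8.80%) and 834 lower (5.19%, together 14.0%), and 795 of the 964 and 785 of the 1247 were called there too.

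Most called genes moved 1 way in all 8 animals, and few genes had levels that separated the days. Of the called genes, 714 of 964 were higher on day 8 in all 8 animals and 819 of 1247 were lower in all 8. Of all genes tested, 8.38% were higher and 6.98% lower in all 8 animals, together 15.4%. A gene whose days do not overlap must move 1 way in all 8 animals, so the 2 measures are not independent. Levels of the days did not overlap, in that every library of a day lay above every library of the other, for 79 genes (0.492%). Of these, 3 were higher and 76 lower on day 8, and all 79 were called.

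Of 2 falling and 2 rising identifiers chosen by rule, ENSMFAG00000040797 fell the most. Being called, changing much and moving 1 way in 8 of 8 animals were conditions of the rule and are given as a description. Its day 7 levels had a lowest value of 5.41, a median of 5.65 and a highest value of 6.45 log2 CPM. CPM are counts scaled to the library's total times its scaling factor. On day 8 the lowest was 0.99 (39104), the median 2.12 and the highest 4.40 (39097). All 8 libraries of day 8 lay below all 8 of day 7, and the spread was wider on day 8 (2.56 ± 1.20, SD, n = 8) than on day 7 (5.79 ± 0.39). The log2 fold change was -3.25 (SE 0.48, 9.54-fold lower, adjusted p = 0.0112). In counts, the range was 808 to 2241 on day 7 and 63 to 753 on day 8. Animal 39097 had the smallest fall, -1.02, and 39104 the largest, -5.08.

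The second falling identifier was ENSMFAG00000002098. It had a lowest value of 2.09 (39098), a median of 3.93 and a highest value of 5.13 log2 CPM (39100) on day 7. On day 8 it had a lowest value of -1.67 (39104), a median of 0.62 and a highest value of 2.02 log2 CPM (39097). The days again did not overlap, although the highest level of day 8 came close to the lowest of day 7. The mean was 3.67 ± 0.93 log2 CPM (SD, n = 8) on day 7 and 0.48 ± 1.27 on day 8. The log2 fold change was -3.19 (SE 0.43, 9.14-fold lower, adjusted p = 0.0106), and animals ranged from -1.33 (39103) to -5.55 (39104). Counts went from 105 to 941 on day 7 to 8 to 119 on day 8, so the lowest day 8 levels rest on few reads.

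Of the rising identifiers, ENSMFAG00000064013 rose the most. Its day 7 levels had a lowest value of 3.18 (39104), a median of 3.76 and a highest value of 4.34 log2 CPM (39097). On day 8 the lowest was 4.10 (39095), the median 5.07 and the highest 5.81 (39102). Animal 39095 alone lay within the day 7 range on day 8. The mean went from 3.82 ± 0.47 to 5.03 ± 0.53 log2 CPM (SD, n = 8), a log2 fold change of 1.21 (SE 0.20, 2.32-fold higher, adjusted p = 0.0134). Animal 39104, the lowest on day 7, had the largest rise, 2.30 on the log2 scale, and 39095 the smallest, 0.52 on that scale.

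ENSMFAG00000036805 differed in that the animals overlapped. Its day 7 levels had a lowest value of 2.31 (39095), a median of 3.04 and a highest value of 4.84 log2 CPM (39103). On day 8 the lowest was 3.34 (39097), the median 4.53 and the highest 5.26 (39103). Of the 8 day 8 levels, 6 lay within the day 7 range, yet the level was higher in 8 of 8 animals, and 39103 was the highest animal on both days. The mean went from 3.27 ± 0.80 to 4.38 ± 0.60 log2 CPM (SD, n = 8), a log2 fold change of 1.11 (SE 0.18, 2.16-fold higher, adjusted p = 0.0128). Rises ran from 0.42 (39103) to 1.78 (39090) on the log2 scale. This call rested on the pairing: without the animal block the log2 fold change was 1.00 with an adjusted p of 0.0747.

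**Figure D1:**
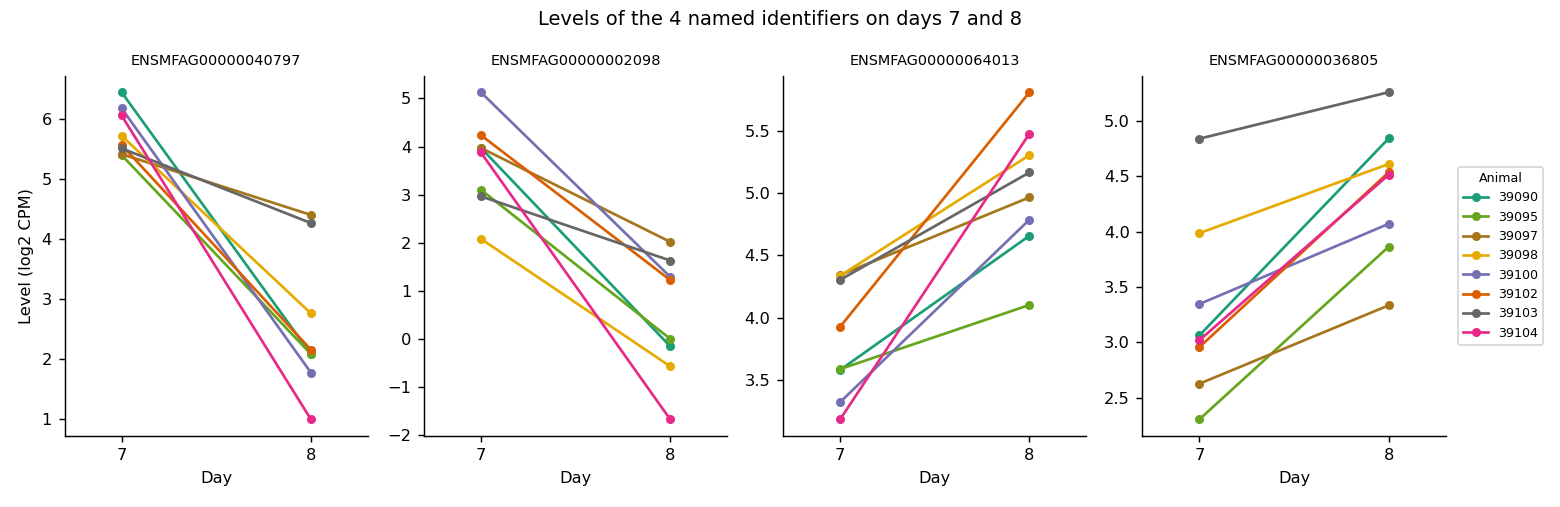
Level in log2 CPM (vertical axis) on days 7 and 8 for the 4 named identifiers, with 1 line for each of the 8 animals. Both falling identifiers separate the days completely, with a spread of 1.20 or more (SD) on day 8, whereas for ENSMFAG00000036805 6 of 8 day 8 levels lie within the day 7 range.

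The 4 identifiers come from a small group whose call did not depend on any 1 animal. In each of the 8 fits on 7 animals, 120 of the 1247 lower (0.747% of genes tested) and 9 of the 964 higher genes (0.0561%) were called again, together 129 genes (0.804%). The 120 lower genes had a median log2 fold change of -1.53 and ranged from -5.29 to -0.61, and 100 of them fell by more than 2-fold. Their mean change was negative in all 8 animals, from -0.66 in 39103 to -2.47 in 39104 on the log2 scale. These same animals chose the genes, so the shared direction is given as a description. The 9 higher genes had a median of 0.80 and ranged from 0.59 to 1.21, and 2 of them rose by more than 2-fold. At the other end, 106 called genes (45 higher, 61 lower) were called in none of the 8 fits.

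Direction went with the level of the gene. Among the 842 genes with a mean of over 8 log2 CPM, 200 were called higher (23.8%) and 17 lower (2.02%). Among the 2472 genes between 6 and 8 log2 CPM, 390 were higher (15.8%) and 116 lower (4.69%). Decreases prevailed below that level, with 239 higher and 441 lower between 4 and 6, 77 and 384 between 2 and 4, 39 and 198 between 0 and 2, and 19 and 91 under 0 log2 CPM. The genes that rose had a median level of 6.49 log2 CPM and those that fell 3.81 log2 CPM, while all genes tested had 3.62 log2 CPM. Few decreases therefore came from the most abundant transcripts, and the lowest band gave few calls of either direction.

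The median log2 fold change of all genes in a band went from -0.27 under 0 log2 CPM to 0.48 over 8 log2 CPM, a gap of 0.75. Every animal had a positive gap between these bands, from 0.13 in 39103 to 1.75 in 39104, and without 39102 and 39104 the gap was 0.39. The median of the highest band was above 0 in all 8 animals, from 0.13 (39103) to 1.22 (39104) on the log2 scale. With bands set by the level on day 0, a day not used in the comparison, 24.1% of the 725 genes over 8 log2 CPM were higher and 1.93% lower. A scaling factor shifts all genes of a library alike, so it leaves this gap in place (0.74 to 0.75 under the 4 scalings) and moves the point at which a gene counts as unchanged. With library totals in place of trimmed means of M-values (TMM), the median of all genes moved from -0.06 to -0.43 on the log2 scale, and 602 genes were higher and 4118 lower. The split of calls moved from 43.6% higher to 12.8% higher, and between 6 and 8 log2 CPM it turned, with 219 higher and 588 lower. The direction of a gene with a small change thus depends on the scaling. TMM factors were lower on day 8 in 8 of 8 animals (0.839 to 1.27 on day 7, 0.635 to 1.03 on day 8).

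**Figure D2:**
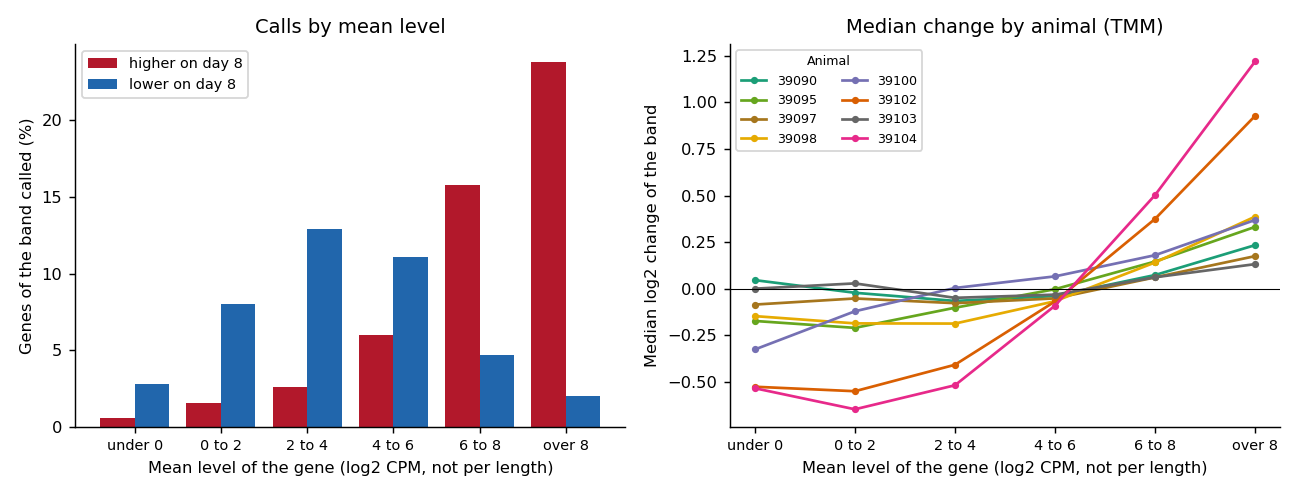
Called genes and fold change by level band of the gene in log2 CPM (horizontal axis), with the share of genes called higher and lower in percent and the median log2 fold change of each animal. The share called higher is 23.8% over 8 log2 CPM and 0.576% under 0 log2 CPM, and the highest band lies above 0 in all 8 animals.

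Counts were concentrated in fewer genes on day 8. The 100 most abundant genes of a library took 21.59 ± 1.87% of its counts on day 7 and 25.24 ± 2.29% on day 8 (SD, n = 8). The share was higher on day 8 in 8 of 8 animals, by 0.65 to 8.43 percentage points and 3.65 ± 2.82 on average (exact two-sided sign-flip permutation test, p = 0.00781, the smallest that 8 animals allow, and 0.0312 adjusted over 4 such tests). With libraries thinned to 18.1 M counts, 18330 ± 667 genes had at least 1 count on day 7 and 17410 ± 496 on day 8 (SD, n = 8). The number was lower in 7 of 8 animals, with a mean difference of -921.4 ± 685 genes (exact two-sided sign-flip permutation test, p = 0.0234, adjusted p = 0.0468). Without 39102 and 39104 the share rose by 2.31 points (exact p = 0.0312, the smallest that 6 animals allow) and the genes differed by -709.3 (exact p = 0.0938). The part of these shifts in the called genes was not tested.

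The animals changed to very different degrees. The root mean square (RMS) of an animal's log2 changes over all 16054 genes was 1.54 in 39104 and 1.30 in 39102. In the other 6 animals it lay between 0.62 (39097) and 0.83 (39100). By number, 3156 genes were higher and 3674 lower by more than 2-fold in 39104, and 2635 and 3228 in 39102. The fewest were seen in 39097, with 596 and 926, and in 39103, with 981 and 799. Both measures include the 3301 genes with a mean under 0 log2 CPM, where counting noise is large and depends on depth. Animals 39097 (51.45 M on day 7) and 39103 (49.47 M on day 8) each had a deep library. So did 39102 (58.57 M) and 39104 (51.85 M), both on day 8. The part of depth and counting noise in these values was not tested. The changes of 39102 and 39104 were also the most alike of the 28 pairs of animals (r = 0.799 over 16054 genes, with 0.426 the next highest and a median of 0.304). Those of 39103 resembled none of the others, with r between -0.01 and 0.14. These are correlations across genes within this study and genes are not independent replicates.

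**Figure D3:**
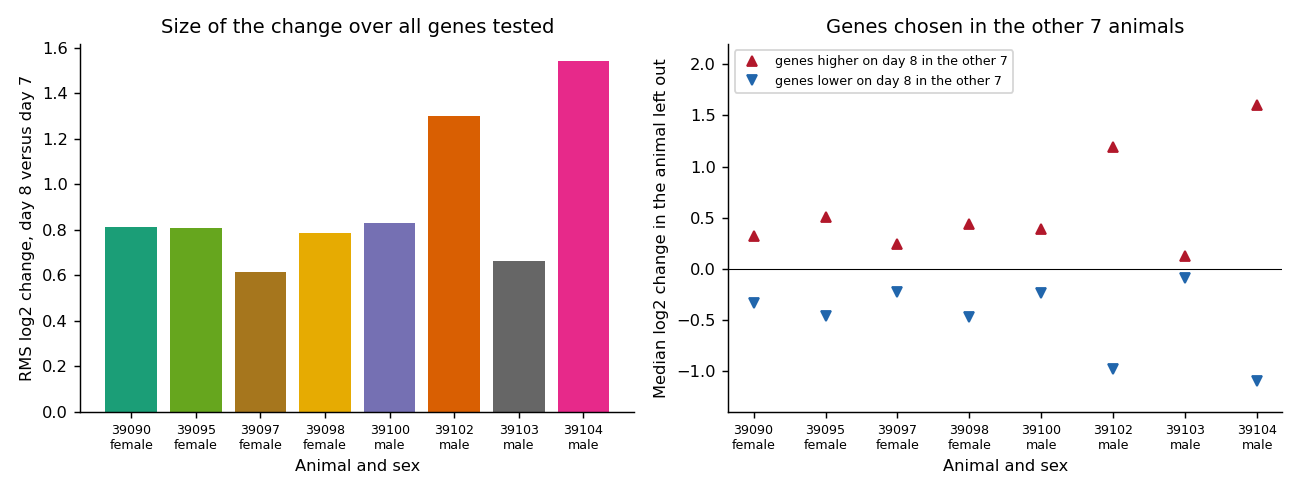
Change of each of the 8 animals between days 7 and 8, as RMS of the log2 changes over 16054 genes and as the median log2 change of genes chosen in the other 7 animals. Animals 39102 and 39104 have the largest values of both kinds, and 39103 has medians of 0.12 and -0.10.

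To read an animal without its own part in the choice, genes were taken at an unadjusted p under 0.05 in the other 7 animals. These sets held 2196 to 3004 higher and 2206 to 3064 lower genes. In 39104 the higher set changed by a median of 1.60 and the lower set by -1.10 on the log2 scale, and in 39102 by 1.19 and -0.98. In 39103 the medians were 0.12 and -0.10, with 66.3% and 62.9% of the genes moving the same way as in the others. Of all genes tested, 50.8% were higher on day 8 in 39103. The other 5 animals lay between, from 0.25 and -0.23 (39097) to 0.50 and -0.47 (39095). All 8 animals moved in the direction of the other 7 by this measure, though by widely different amounts.

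The sets differed between animals in level as well. For its higher set, 39103 already lay 0.81 above the mean of the other 7 animals on day 7 (log2 CPM) and lay 0.09 above it on day 8. Animal 39104 lay 0.76 below the others on day 7 and 0.47 above them on day 8. Animal 39102 lay 0.51 below on day 7 and 0.21 above on day 8. For the lower set the order was opposite: 39103 lay 0.64 below the others on day 7 and 0.04 above on day 8, whereas 39104 lay 0.11 above on day 7 and 0.47 below on day 8. Animal 39100, with a moderate change, was the furthest from the others on day 8 in its higher set, 0.68 below them, and it lay 0.30 below on day 7.

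The number of genes called depended on which animals were in the test. With 1 animal left out it ran from 144 (13 higher, 131 lower, without 39095) to 2742 (1305 higher, 1437 lower, without 39103). It was 217 without 39098, 344 without 39102, 476 without 39090, 612 without 39100, 1376 without 39097 and 1449 without 39104. Genes at an unadjusted p under 0.05 varied far less, from 4402 (39102 left out) to 6068 (39103 left out), against 5894 in 8 animals. Leaving out 39095 gave 5166 such genes, and leaving out 39104 gave fewer, 4716, though with more calls. A low count of calls in these fits is therefore not a matching loss of genes at an unadjusted p under 0.05. Among the calls, decreases outnumbered increases in these fits except without 39104 (725 higher, 724 lower). Increases were the majority without both 39102 and 39104, and also without the 4 animals that had a library over 40 M (1836 higher, 1106 lower). The library of 39095 on day 7 is also the 1 of 16 whose column name carries another library tag, so that the 7 animals with a shared tag gave the same 144 genes. DESeq2 called 4543 genes (28.3%), of which 2519 were higher (15.7%) and 2024 lower (12.6%), and 2208 of the 2211 genes were among them with the same direction. The split was 55.4% higher with DESeq2 against 43.6% with edgeR. Without the block edgeR called 700 genes.

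**Figure D4:**
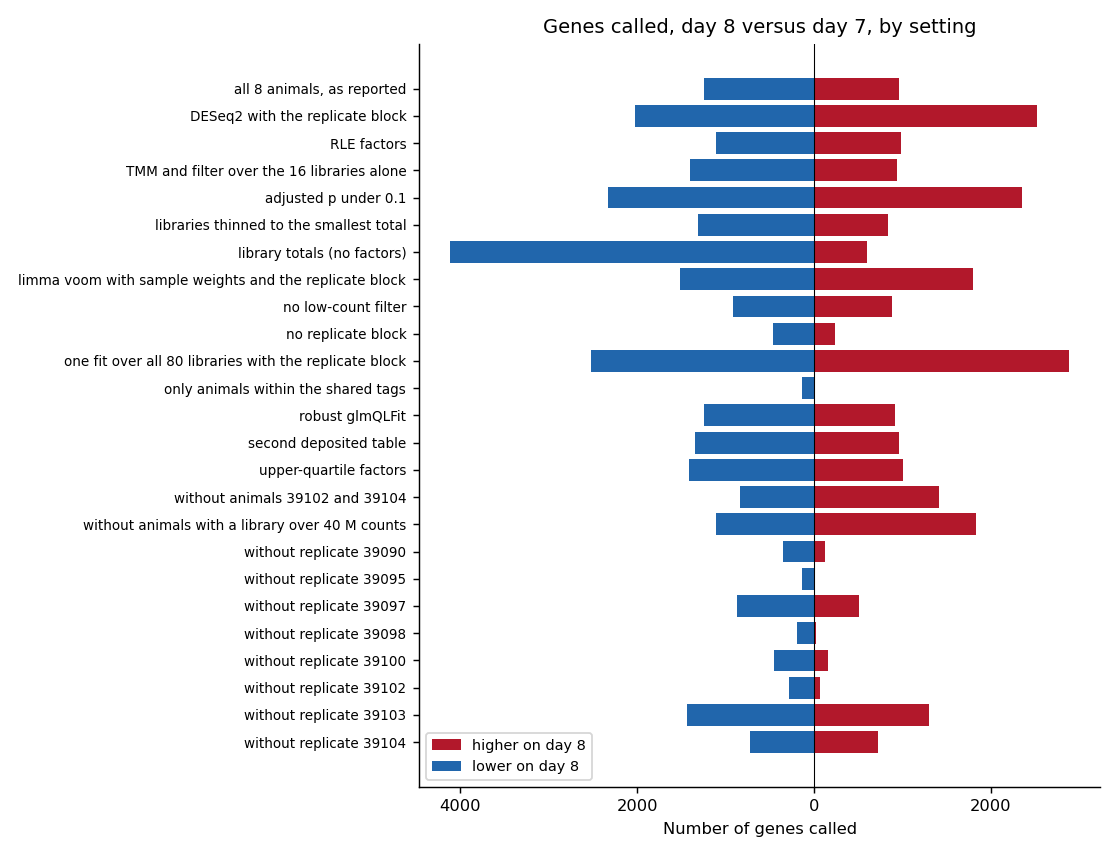
Number of genes called higher and lower on day 8 (horizontal axis) under each alternative test, scaling, filter or set of animals. The number of calls runs from 144 without 39095 to 5410 in a single fit over all 80 libraries, against 2211 in the reported test.

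No difference between the sexes was called. For the term of males minus females in the change, 0 genes passed in edgeR (731 at an unadjusted p under 0.05, 4.55%, smallest adjusted p = 0.742) and 0 in DESeq2 (1227 unadjusted, smallest adjusted p = 0.0861). The males ranged more widely than the females, with RMS changes of 0.66 to 1.54 against 0.62 to 0.81. The called higher genes changed by a mean of 1.03 in males and 0.59 in females, and the called lower genes by -1.04 and -0.84, on the log2 scale. Both animals with the largest change were male, and so was 39103, which had one of the smallest. With 4 animals of each sex and this spread, a missing call does not show that the sexes responded alike.

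The 24 h change after the third dose was set beside those after the first (day 1 against day 0) and the second (day 4 against day 3), which come from other libraries of the same animals. RMS change per animal was 0.92 ± 0.33 after the third dose, 0.71 ± 0.06 after the first and 0.83 ± 0.30 after the second (SD, n = 8). The third exceeded the first by 0.21 on average, in 6 of 8 animals (exact two-sided sign-flip permutation test, p = 0.172, adjusted p = 0.229), and by 0.02 without 39102 and 39104 (exact p = 0.688). It exceeded the second by 0.09, in 4 of 8 animals (exact p = 0.695, adjusted p = 0.695), and without 39104 this difference was -0.03. Over genes with a mean of at least 2 log2 CPM, the third exceeded the first by 0.288, in 7 of 8 animals (exact p = 0.0391, unadjusted). Over these genes it exceeded the second by 0.209, in 6 of 8 (exact p = 0.102, unadjusted). Over all genes, the exact p against the first dose was 0.0469 without 39097 and 0.141 to 0.344 without any other single animal. The largest single value after the second dose was also that of 39102 (1.55), while 39104 had the smallest there (0.61). Within an animal, the changes of the third and second doses had r = 0.744 over 16054 genes in 39102 and between -0.04 (39104) and 0.24 in the other 7. Animal 39104 thus changed most after the third dose and little after the second.

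The genes called lower after the third dose had a negative mean change after the other doses, though few of them were called there. The mean log2 change was -0.31 ± 0.16 after the first dose and -0.40 ± 0.32 after the second (SD, n = 8), below 0 in 8 of 8 animals each time. Over all genes tested it was -0.03 after the first dose (below 0 in 7 of 8) and -0.04 after the second (6 of 8). Fold changes were negative for 1026 of the 1247 after the first dose and 1179 after the second. Positive fold changes thus made up 17.7% and 5.45% of these genes, against 47.2% and 47.8% of all genes tested. After the first dose 158 of the 1247 were called lower (12.7%) and 2 higher, where 1.86% of all genes were called lower and 2.61% higher (4.47% together). After the second dose 28 were called lower (2.25%), and 29 genes (0.181%) were called in all. The group of 120 lower genes whose call did not depend on any 1 animal had 57 called lower after the first dose and 17 after the second, with negative fold changes for 115 and 119 of them.

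The genes called higher after the third dose went both ways after the first. Their mean log2 change was 0.02 ± 0.17 (SD, n = 8), positive in 4 of 8 animals. Fold changes were above 0 for 500 of them and below for 464 (51.9% above, against 47.2% of all genes). On day 1, 86 of the 964 were called higher (8.92%, against 2.61% of all genes) and 20 lower (2.07%, against 1.86% of all genes). After the second dose they changed by 0.32 ± 0.43, positive in 7 of 8 animals, and by 0.17 without 39102. There 938 of 964 had a positive fold change (97.3%, against 47.8% of all genes), but 0 were called. The difference between the third and the first change, tested over 32 libraries, was called for 793 genes (4.94%), of which 538 (3.35%) were more positive and 255 (1.59%) more negative after the third dose. Among the genes called between days 7 and 8, 345 of the 964 higher ones had a more positive change and 180 of the 1247 lower ones a more negative change, a count that uses the same day 7 and 8 libraries as the choice of the genes. This count of 793 rested on several animals: it became 0 without 39098, 39100 or 39102, 1 without 39104, 5 without 39090, 80 without 39097 and 396 without 39095, rose to 1496 without 39103, and was 2 without both 39102 and 39104. For this difference from the first dose, 4194 genes had an unadjusted p under 0.05 in 8 animals. With 1 animal left out, 2824 (39104) to 4647 (39103) did. Against the second dose, 0 genes differed (1033 at an unadjusted p under 0.05, 6.43%, smallest adjusted p = 0.743), and DESeq2 called 1, a more negative change (0.00623%).

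The named identifiers followed these patterns to different degrees. ENSMFAG00000002098 changed by -3.29 on the log2 scale after the first dose (adjusted p = 0.0023), -1.83 after the second (adjusted p = 0.0437) and -3.19 after the third, and no animal had a higher level at 24 h on any of these occasions. The difference between the third and the first change was -0.06 (SE 0.72, adjusted p = 0.969), an interval wide enough to hold differences of more than 2-fold in both directions. ENSMFAG00000040797 changed by -2.87, -1.52 and -3.25 after the doses in order (adjusted p = 0.00296, 0.0452 and 0.0112). ENSMFAG00000064013 changed by -0.01 after the first dose (adjusted p = 0.965, higher in 4 of 8 animals), by 0.63 after the second (adjusted p = 0.237, higher in 8 of 8) and by 1.21 after the third. The difference of the third from the first change was 1.23 (SE 0.25, adjusted p = 0.0254). That call was lost when 39090, 39098, 39100, 39102 or 39104 was left out (adjusted p between 0.0539 and 0.107), though the difference stayed between 0.99 and 1.28 in these fits. Without both 39102 and 39104 the difference was 0.86 (adjusted p = 0.16). ENSMFAG00000036805 changed by 0.37 after the first dose (adjusted p = 0.0929) and by 0.24 after the second (adjusted p = 0.505), and the difference of the third from the first change, 0.72, was not called by edgeR (adjusted p = 0.0626) but was called by DESeq2 (0.75, adjusted p = 0.0213) and by edgeR without 39103 (0.84, adjusted p = 0.0316). The doses increased in the order they were given, so dose, order and time since the start cannot be told apart.

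Day 7 was itself displaced from day 0, and for the called genes the mean of day 8 lay on the other side. The called higher genes lay 0.36 ± 0.33 below their day 0 level on day 7 (mean log2 change -0.36, above 0 in 2 of 8 animals) and 0.45 ± 0.46 above it on day 8 (above 0 in 7 of 8). The called lower genes had mean log2 changes from day 0 of 0.42 ± 0.26 on day 7 (above 0 in 7 of 8 animals) and -0.53 ± 0.36 on day 8 (above 0 in 0 of 8). In day 7 against day 0 (14.3% of genes called, 7.08% higher and 7.19% lower), 356 of the higher genes were called lower and 6 higher, and 423 of the lower genes were called higher and 3 lower. In day 8 against day 0 (6.55% called, 3.21% higher and 3.34% lower), 149 of the higher genes were called higher and 235 of the lower genes lower. The 3 comparisons share the libraries of days 0, 7 and 8, so these counts are not independent of the choice of the genes. In the mean over animals, the step from day 7 to day 8 crossed the level of day 0 for both groups of genes. Choosing genes for a difference between these days favours such a crossing. The higher genes did not cross in 39097 (0.01 and 0.45), 39103 (0.14 and 0.40) or 39100 (-0.91 and -0.23 from day 0). The lower genes did not cross in 39103 (-0.04 and -0.37).

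By day 10, which is 72 h after the third dose, most of the step had been reversed. The day 10 libraries of 39102, 39103 and 39104 carry another run tag than all libraries of days 7 and 8, so the counts are also given for the other 5 animals. In day 10 against day 8 (11.1% of genes called, 5.64% higher and 5.51% lower), 520 of the 964 higher genes were called lower and 691 of the 1247 lower genes were called higher. Within the shared run (5 animals, 8.68% of genes called) these counts were 371 and 435. In day 10 against day 7, 0 genes were called by edgeR in 8 animals (1663 at an unadjusted p under 0.05, 10.4%, smallest adjusted p = 0.305), but 421 were called in the 5 animals of the shared run (2.62%, 354 higher and 67 lower). The animals left out are all male and include 39102 and 39104, which changed most from day 7 to day 8. Run, animal and sex therefore cannot be told apart in the difference between 0 and 421 calls. Those 421 included 64 of the higher genes that were still above day 7 and 5 that were below it. They also included 23 of the lower genes that were still below day 7 and 1 that was above it. In 8 animals the mean log2 difference of day 10 from day 7 was 0.21 ± 0.28 for the higher genes (above 0 in 7 of 8) and 0.12 without 39104, which alone had 0.84. For the lower genes it was -0.16 ± 0.13, below 0 in 8 of 8 animals. In the 5 animals of the shared run the means were 0.14 ± 0.13 and -0.15 ± 0.10 (SD, n = 5), above and below 0 in 5 of 5. Of the 120 lower genes whose call did not depend on any 1 animal, 118 were called higher from day 8 to day 10. These comparisons share libraries with the one that chose the genes.

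**Figure D5:**
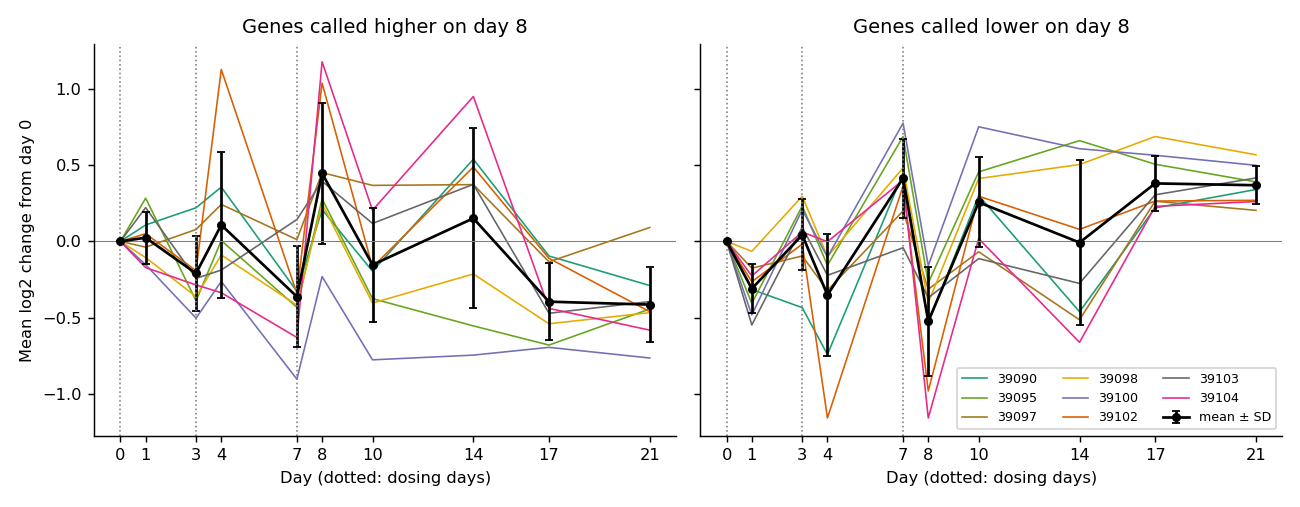
Mean log2 change from day 0 (vertical axis) over the sampling days for genes called higher and genes called lower between days 7 and 8, with 1 thin line per animal and the mean of 8 animals. The called higher genes go from -0.36 on day 7 to 0.45 on day 8 and -0.15 on day 10, and the called lower genes from 0.42 to -0.53 and 0.26.

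Singly, the named identifiers differed in how closely they followed this course. ENSMFAG00000002098 started at a mean level of 2.71 log2 CPM on day 0, stood at 3.67 by day 7 and at 0.48 by day 8, and was at 3.53 by day 10. From day 8 to day 10 it rose by 3.08 on the log2 scale (adjusted p = 0.0138), and day 10 differed from day 7 by -0.13 (adjusted p = 0.722). ENSMFAG00000064013 fell by 0.70 on the log2 scale from day 0 to day 7 (adjusted p = 0.00211, lower in 8 of 8 animals), and on day 8 it lay 0.52 above day 0 (adjusted p = 0.072, higher in 8 of 8). More of its step from day 7 to day 8 thus lay below the day 0 level than above it. ENSMFAG00000036805 differed in this: its day 7 level was 0.09 above day 0 (adjusted p = 0.796), and its day 8 level rose 1.21 above day 0 (adjusted p = 0.00732, higher in 8 of 8). Both rising identifiers fell again from day 8 to day 10, by 0.82 (adjusted p = 0.0246) and 0.81 (adjusted p = 0.0154) on the log2 scale.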

How the data were processed

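Per the labels, RNAdvance Blood reagents were used to extract RNA from whole blood, and mRNA libraries were prepared with KAPA HyperPrep. The authors deposited raw, whole-number counts per gene for the 80 libraries in 2 tables, the first over 38550 genes and the second over 35432 under other identifiers. No label or file header used here names the aligner, counting program, strand setting or build. The first table was used and the second was an alternative. Overlapping, antisense and near-identical genes could share counts.

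Genes were kept with filterByExpr grouped by day (16054 genes, 41.64%), scaled by TMM over 80 libraries, and tested with edgeR 4.0.16 (glmQLFit, glmQLFTest; R 4.3.3) on the 16 libraries of each pair of days, or 32 for dose differences, with animal as a block. Levels are log2 CPM with a prior count of 2, and fold changes of single animals are on that scale. Animal numbers give the pairing: deviations from the day means had a median r of 0.484 within an animal and -0.0622 between animals. The means are those of the same 8 animals, so a positive value within animals pulls the value between animals below it to a negative one. The value between animals is therefore not a separate result. Libraries of a day differed by more than sampling noise (smallest chi-square per degree of freedom 38.5). Alternatives were other scalings, filters, tests (DESeq2 1.42.0, limma 3.58.1), tables and animals. Counts were simulated for day 8 versus day 7, in which a gene changed alike in all animals. The test recovered 95 of 100 genes changed 2-fold and 100 of 100 changed 4-fold, and called 9 others of the 16054 genes. The changed genes were drawn from those with a mean of over 2 log2 CPM, so recovery below that level was not tested. No batch is labelled beyond the tags in column names, and the 8 animals of a day are separate animals.

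Identifiers were named by a rule: the 2 highest and 2 lowest fold changes among genes called, with a mean of at least 2 log2 CPM, the same direction in 8 of 8 animals and a call in each fit that left out 1 animal. The comparison, rule and gene lists were chosen with earlier results of these data known. Because 0 identifiers matched a symbol, the lists of pathway and cell type genes were left out.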

Additional observations from a re-analysis of the deposited data

Results flagged for a closer look

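In groups of 8 libraries or animals, 28 measures were checked for a value far from the rest, 2 stood apart, and chance gives about 5% of such groups. The day 7 library of 39097 held 51.45 M counts, and the next deepest of that day held 25.44 M. The RMS change of 39102 after the second dose was 1.55, and the next highest was 0.83. The change after the third dose differed from that after the first for 793 genes, and for ENSMFAG00000064013 by 1.23 on the log2 scale (edgeR adjusted p = 0.0254). Without 39102 and 39104 the count was 2, and the identifier's difference was 0.86 with an adjusted p of 0.16.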

How the results depend on the processing

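The count of 2211 genes became 4678 at an adjusted p under 0.1, 4720 with library totals, 4543 with DESeq2, 5410 in 1 fit over all 80 libraries, 144 within shared tags, and 144 to 2742 with 1 animal left out. It stayed within 1.5 times under 11 alternatives, among them the second table (2310), limma (3312), libraries thinned to 18.1 M (2145) and, chosen after seeing the data, without 39102 and 39104 (2246). With no replicate block it was 700, and the pairing also decided the call of ENSMFAG00000036805 (1.00, adjusted p = 0.0747). The other 3 identifiers kept their call under the alternatives run, of which the fits without 1 animal were part of the rule that chose them. The 793 genes that differed from the first dose became 1919 with library totals, 312 with no filter, 0 with no replicate block, 2089 with DESeq2, 0 to 1496 with 1 animal left out, and 2 without 39102 and 39104. Against the second dose the 0 genes became 1 with DESeq2 and 0 to 1 with 1 animal left out. The sex term gave 0 genes under all 13 alternatives. The RMS difference from the first dose was 0.288 (exact p = 0.0391) over genes of at least 2 log2 CPM and 0.108 to 0.263 with 1 animal left out, and that from the second -0.0291 to 0.139. The fall in genes detected was -709.3 (exact p = 0.0938) without 39102 and 39104. Some low levels rest on few reads: the day 8 level of ENSMFAG00000002098 in 39104 rests on 8 counts, in a library of 51.85 M. The causes of these differences were not tested.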

Other observations

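A week after the third dose the animals differed again in the genes called higher on day 8. On day 14 the mean log2 change of these genes from day 0 was 0.15 ± 0.59 (SD, n = 8), against -0.40 ± 0.25 on day 17. On day 14, 5 libraries carried another run tag and ranged from -0.75 to 0.54, and the 3 of the shared run ranged from 0.38 to 0.95, with 39104 the highest. Run and animal cannot be told apart there.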
